A study of Mus musculus with 4 samples.

Results

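The libraries described here, TS and TBM, held sorted cells from the spleen and the bone marrow (BM) of mice that carried PyMT-B6 tumors. Cells were the barcodes of the unfiltered count matrices with at least 1000 detected genes and at most 10% of their UMIs (unique molecular identifiers) in mitochondrial genes, whose symbols begin with mt-. This kept 5188 cells of TS and 4340 cells of TBM, 9528 of the 16261 cells kept over all 4 libraries. The mice were C57BL/6J, aged 8 to 16 weeks per the labels and female per the study's methods, and PyMT-B6 is a line grown from a mammary tumor of an MMTV-PyMT mouse, in which a viral promoter active mainly in mammary epithelium drives the polyoma middle T oncogene. The line was placed under the skin, and the control spleen and marrow libraries, CS and CBM, came from mice without tumors. How many mice were pooled into a library was not given in the sources used here.

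Each library was a mixture rather than a sample of a whole organ. Lineage-depleted, enzyme-digested tissue was sorted into CD45+ c-Kit+ cells with or without Sca-1 and into CD45- cells with or without CD31 and CD51, and the gates were mixed at equal ratios before 3′ single-cell sequencing. The labels speak of 5 populations but list 6 gates, so the weight of each gate is uncertain. A share given here is a share of that pool. With 1 library per side there was no replicate to test against, so levels are given as counts per 1000000 UMIs (CPM) summed over cells, with exact Poisson 95% intervals for levels, exact binomial 95% intervals for shares and exact conditional 95% intervals for ratios. These intervals cover counting error only, and differences between mice, sorts and libraries cannot be told apart from differences between spleen and marrow.

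In extramedullary hematopoiesis, blood cell production moves in part from the marrow to organs such as the spleen, where hematopoietic stem and progenitor cells (HSPCs) lodge and often give rise to red cell precursors. Erythroid progenitors first express regulators and membrane proteins of their lineage and fill with hemoglobin only later, so hemoglobin RNA orders them by maturity. NF-κB is a family of transcription factors held in the cytoplasm by IκB proteins. Signals such as TNF or IL-1 free it, and it then switches on inflammatory genes, among them the neutrophil attractant Cxcl2 and its own inhibitor IκBα, encoded by Nfkbia.

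TS was the deeper library. Kept cells had a median of 26808 UMIs and 4949 genes in TS and 14386 UMIs and 3856 genes in TBM, from totals of 176094297 and 135207987 UMIs. The median mitochondrial percentage was 3.57% in TS and 2.89% in TBM, and the 10% limit had left out 446 and 730 barcodes. Below the gene limit, from 350 genes up, lay another 2090 barcodes of TS and 7983 of TBM. The libraries shared 5 barcode sequences among kept cells. RNA outside cells was read from barcodes with at most 100 UMIs and is called free RNA below.

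The sequences that bear on the NF-κB genes described below are those around the starts of Cxcl2 (gene at chr5:90903871-90905938, plus strand) and Nfkbia (gene at chr12:55489410-55492647, minus strand), positions being of the build GRCm38. They are shown because Cxcl2 and Nfkbia stood among the genes with the widest spleen to marrow differences within progenitor classes. Both windows are 300 bases from RefSeq on GRCm38.p6, chr5:90903649-90903948 on the plus strand and chr12:55492598-55492897 on the minus strand, written 5′ to 3′ in the direction of the gene. Capitals mark matches to GGGANNTTCC on either strand, a pattern of the kind NF-κB proteins bind.
Cxcl2: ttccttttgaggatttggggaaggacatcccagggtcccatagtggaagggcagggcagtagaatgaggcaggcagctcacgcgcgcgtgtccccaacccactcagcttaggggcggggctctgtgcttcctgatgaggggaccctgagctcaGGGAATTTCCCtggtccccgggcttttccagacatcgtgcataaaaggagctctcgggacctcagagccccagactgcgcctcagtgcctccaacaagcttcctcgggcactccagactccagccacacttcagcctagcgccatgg
Nfkbia: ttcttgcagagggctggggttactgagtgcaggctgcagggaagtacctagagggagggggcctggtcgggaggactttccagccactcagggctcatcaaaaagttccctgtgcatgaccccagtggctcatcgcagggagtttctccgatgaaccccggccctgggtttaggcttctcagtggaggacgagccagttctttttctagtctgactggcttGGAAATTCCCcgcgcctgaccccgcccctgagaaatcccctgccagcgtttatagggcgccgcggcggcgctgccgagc
The match began 97 bases before the RefSeq start on which the Cxcl2 window was set, where matches on both strands overlap, and 29 bases before that of Nfkbia. The RefSeq start of Cxcl2 lies downstream of the gene start given above, which is GENCODE's. Of all 32851 promoter windows of this length, 482 (1.47%) held a match on either strand. Of the 22 genes of the NF-κB response list, 18 had a promoter entry, and 4 of these held the motif, Cxcl1, Cxcl2, Nfkbia and Nfkb2. None of the 20 genes of the dissociation and immediate-early list that had an entry held it. A match is a description of letters and not evidence of binding.

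TS and TBM differed in which cells they held. Erythroid-like cells made up 2923 of the 5188 TS cells, 56.3% (55.0 to 57.7), against 206 of the 4340 TBM cells, 4.75% (4.13 to 5.42), an 11.9-fold difference. Granulocyte-monocyte progenitor (GMP)-like cells, the source of neutrophils and monocytes, were the largest class of TBM, with 1601 cells or 36.9% (35.5 to 38.3), against 569 cells or 11.0% of TS. HSPC-like cells numbered 612 in TS, 11.8% (10.9 to 12.7), and 824 in TBM, 19.0% (17.8 to 20.2). Each cell took the class of the marker list on which it scored highest, if that score stood clear of the next. The 742 TS cells (14.3%) and 473 TBM cells (10.9%) that met no such condition were left unassigned. Of the 2923 TS erythroid-like cells, 586, 123 and 110 lay in clusters 1, 0 and 21, whose 10 leading genes, such as Scin, Apoe and Slc45a3, included none of the erythroid markers.

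The remaining classes were mostly larger in TBM. Mast or basophil-like cells, which carry the granule proteases of allergic responses, were 66 cells (1.27%) of TS and 427 (9.84%) of TBM. Megakaryocyte-like cells, the source of platelets, were 123 (2.37%) and 282 (6.50%). Monocyte-like cells were 6 (0.116%) and 269 (6.20%), a 53.6-fold difference, and neutrophil-like cells were 6 (0.116%) and 63 (1.45%). B lineage-like cells followed the same direction, with 28 (0.540%) in TS and 168 (3.87%) in TBM. In the other direction stood T, NK or innate lymphoid-like cells, with 73 (1.41%) in TS and 5 (0.115%) in TBM, and dendritic-like cells, with 22 (0.424%) and 2 (0.0461%). Cluster 26, led by the MHC class II genes Cd74, H2-Aa, H2-Eb1 and H2-Ab1, held 45 TS and 30 TBM cells, so most TBM cells of that profile did not take the dendritic-like class. Few cells had the markers of vessel wall or stroma. Endothelial-like cells numbered 5 in TS and 0 of 4340 in TBM, for which 3 counts would be 0.0691% and the exact interval reaches 0.0850%, and stromal-like cells numbered 4 and 1.

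**Figure D1:**
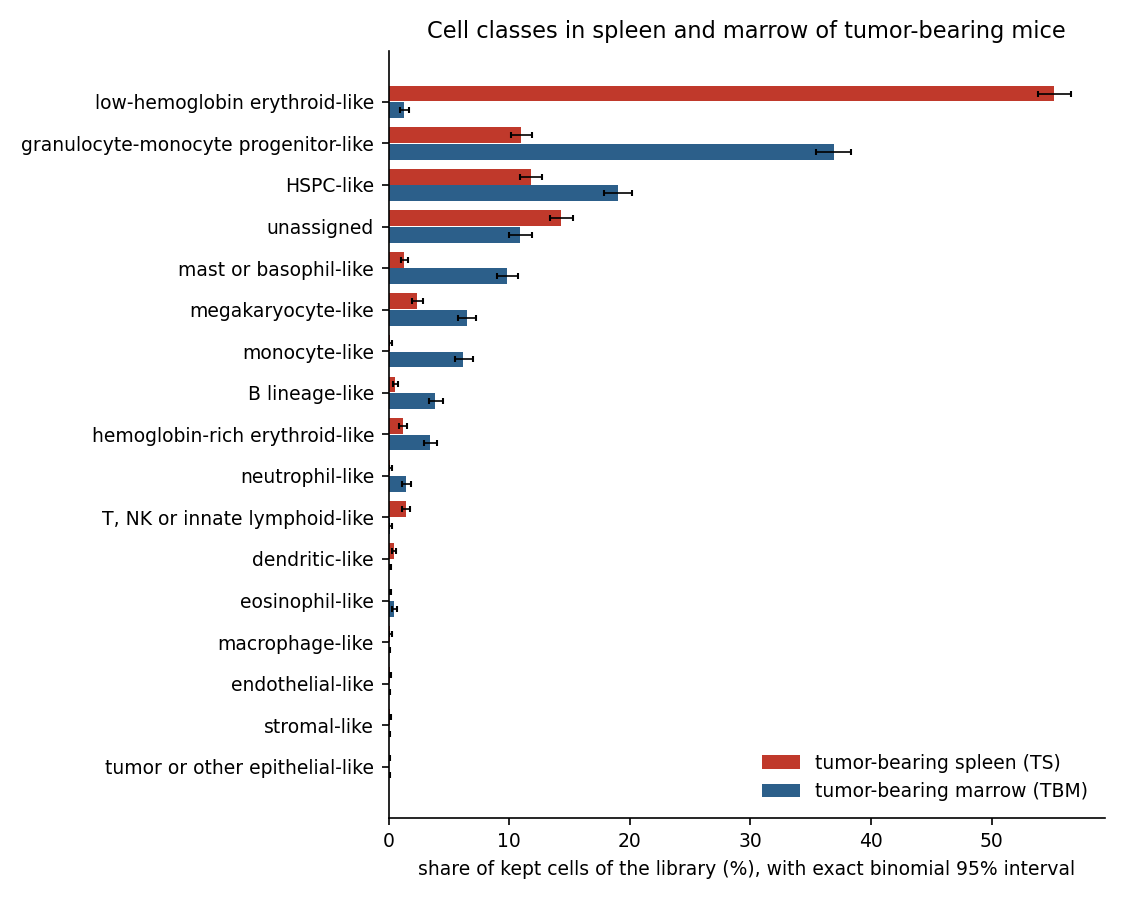
Percent of kept cells in each cell class (x axis) in TS and TBM, with exact binomial 95% intervals of counting error, erythroid-like cells being split into those with under 1% and those with at least 1% hemoglobin UMIs. Low-hemoglobin erythroid-like cells are 55.2% of TS and 1.29% of TBM, and GMP-like cells 11.0% of TS and 36.9% of TBM.

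The tumor-free libraries held the same order between organs for these classes. Erythroid-like cells were 41.7% of CS and 6.86% of CBM, and GMP-like cells 5.22% and 19.1%. HSPC-like cells were 6.58% of CS and 21.5% of CBM. Mast or basophil-like cells did not share the contrast to the same size, being 9.39% of CS and 11.6% of CBM.

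The HSPC-like and megakaryocyte-like shares turned direction with the gene limit. With cells thinned to 2000 UMIs each the HSPC-like share was 5.57% in TS (288 of 5167) and 11.6% in TBM (498 of 4299), but 58.2% of TS cells and 21.5% of TBM cells were then unassigned. When barcodes from 350 genes up were included, the direction turned, with 8.02% HSPC-like in TS (542 of 6760) and 6.98% in TBM (800 of 11461). Megakaryocyte-like cells turned as well, to 3.55% in TS (240 of 6760, at a median of 2225.5 UMIs) and 2.16% in TBM (247 of 11461, at 24373). With that limit 66.4% of the TBM barcodes were GMP-like, at a median of 583 UMIs. Erythroid-like cells stood at 21.2% of TS and 4.09% of TBM after thinning. Within 0.05 of the class limits lay 157 of the 612 HSPC-like cells of TS, 145 of the 824 of TBM and 273 of the 2923 erythroid-like cells of TS.

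The erythroid-like cells of the 2 organs stood at different stages of hemoglobin filling. Hemoglobin took a median of 0.00395% of the UMIs of a TS erythroid-like cell and 15.8% of those of a TBM erythroid-like cell. Of the TS erythroid-like cells, 97.9% had under 1% hemoglobin, against 27.2% in TBM, 95.3% in CS and 57.5% in CBM. As shares of all kept cells, low-hemoglobin erythroid-like cells were 55.2% of TS (2863 cells) and 1.29% of TBM (56 cells), a 42.8-fold difference. Hemoglobin-rich cells were instead the larger share of TBM, with 60 cells (1.16%) in TS and 150 (3.46%) in TBM. Low-hemoglobin cells had similar depth on both sides, with medians of 34087 UMIs in TS and 35300 in TBM. Free RNA held 0.280% hemoglobin in TS and 1.15% in TBM.

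**Figure D2:**
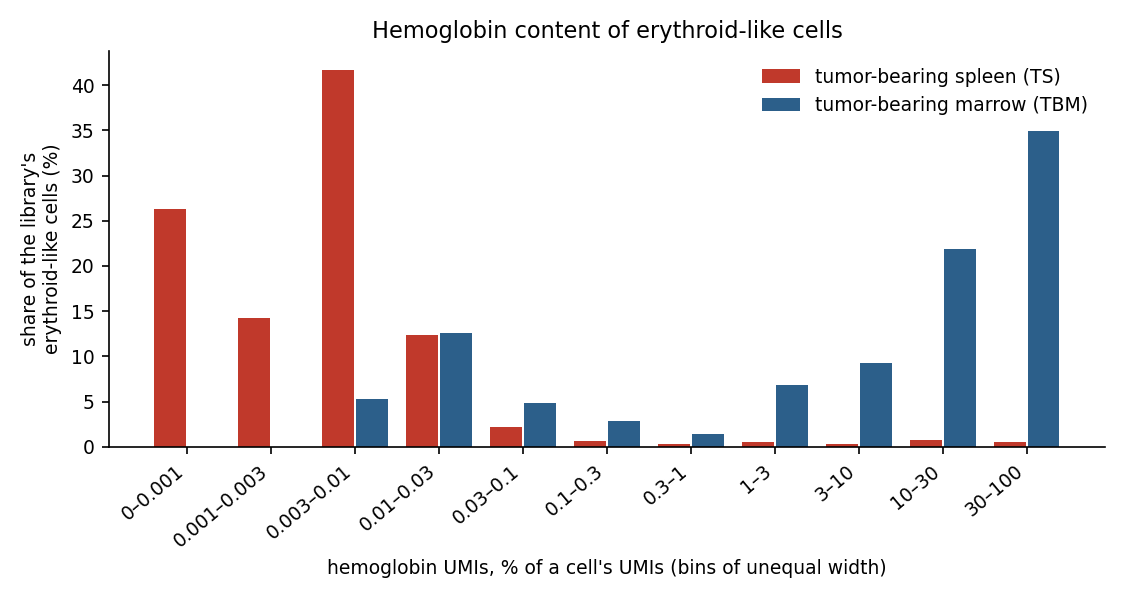
Percent of each library's erythroid-like cells (y axis) by the percent of a cell's UMIs that came from hemoglobin genes (x axis, unequal bins), for 2923 TS and 206 TBM cells. In TS 41.7% of the cells lie between 0.003% and 0.01%, and in TBM 35.0% lie between 30% and 100%.

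Summed over all kept cells, 171 of 5883 genes with a mean of at least 20 CPM were at least 2-fold higher in TS (2.91% of genes) and 430 were at least 2-fold lower (7.31%). Scaled by the median of gene ratios instead of the total, which moved the median gene from 0.04 to 0.26 on the log2 scale, 291 were higher and 331 lower. Car1, the carbonic anhydrase of early erythroid cells, stood at 2288 CPM in TS and 102 in TBM (log2 ratio 4.49, 4.46 to 4.52). Mt2, a metal-binding metallothionein, stood at 409 and 14.9 CPM (4.78). Gm15915, a noncoding RNA gene antisense to Ntn4, stood at 269 and 8.04 CPM (5.06). The membrane protein gene Ermap (3.27), C1qtnf12 (3.11) and the heme breakdown enzyme Blvrb (2.57) came next among genes above 100 CPM, followed by Aplp2, Ugcg, Mns1 and Car2 at 1.70 to 2.12.

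Among the genes furthest below in TS, Camp, the antimicrobial peptide of neutrophil granules, stood at 4.44 CPM in TS and 200 in TBM (log2 ratio -5.50). Chil3, a chitinase-like protein of myeloid cells, was at 7.64 and 286 CPM (-5.23), and Prss34, a basophil protease, at 35.0 and 744 CPM (-4.41). Ly6c2, Ccl6, S100a9, Lyz2, S100a8, F13a1 and Mcpt8 followed at -4.25 to -3.59. All 14 tested genes of the granule protein list were at least 2-fold lower in TS, with a median log2 ratio of -2.94, beside 430 of all 5883 genes (7.31%). Many of these 14 are also markers of the GMP-like or neutrophil-like class, so the count is not separate from the class shares. Among them, the proteases Elane, Prtn3 and Ctsg and the peroxidase Mpo, which GMPs make, stood at -2.69 to -2.28.

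The counts in the gene lists that follow stand beside 171 higher (2.91%) and 430 lower (7.31%) of all 5883 genes. Of 13 tested genes of heme synthesis and iron handling, 5 were at least 2-fold higher and 2 lower, with Cpox at 166 and 62.0 CPM and Alad at 128 and 44.3 CPM on the higher side. Alas1, the form of the first heme enzyme used outside the red cell lineage, stood at 38.1 CPM in TS and 145 in TBM (-1.93). Of 10 homing and adhesion genes 6 were lower and 1 higher, the integrin gene Itga4 at 288 and 136 CPM (1.08). Of 14 glycolysis and hypoxia genes, 5 were lower and 0 higher. None of the 23 S phase genes and none of the 22 genes of G2 and mitosis passed 2-fold, their median log2 ratios being 0.18 and 0.09.

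The pooled ratios were set beside those that the class shares alone would give. For this description each class, with erythroid-like cells split at 1% hemoglobin, kept its TBM level of every gene and received its TS share of UMIs. The part of class shares in a gene's difference was not tested. Of the 171 genes higher in TS, 139 (81.3%) were past 2-fold on the class shares alone and 166 had the same sign. Of the 430 lower genes, 335 (77.9%) were past 2-fold and 426 had the same sign. Class markers were kept in these counts. Car1, itself an erythroid class marker, stood at 4.28 from the classes alone against 4.49 observed, so its closeness was partly set by the class definition. Mt2, which is not a class marker, stood at 4.43 against 4.78. Cxcl2 was an exception, with 67.7 CPM in TS and 21.9 in TBM (1.63, 1.55 to 1.70) where the classes alone gave -1.26. Cd74, the invariant chain of MHC class II, was another, with 44.8 and 10.0 CPM (2.16) against -1.21 from the classes alone.

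**Figure D3:**
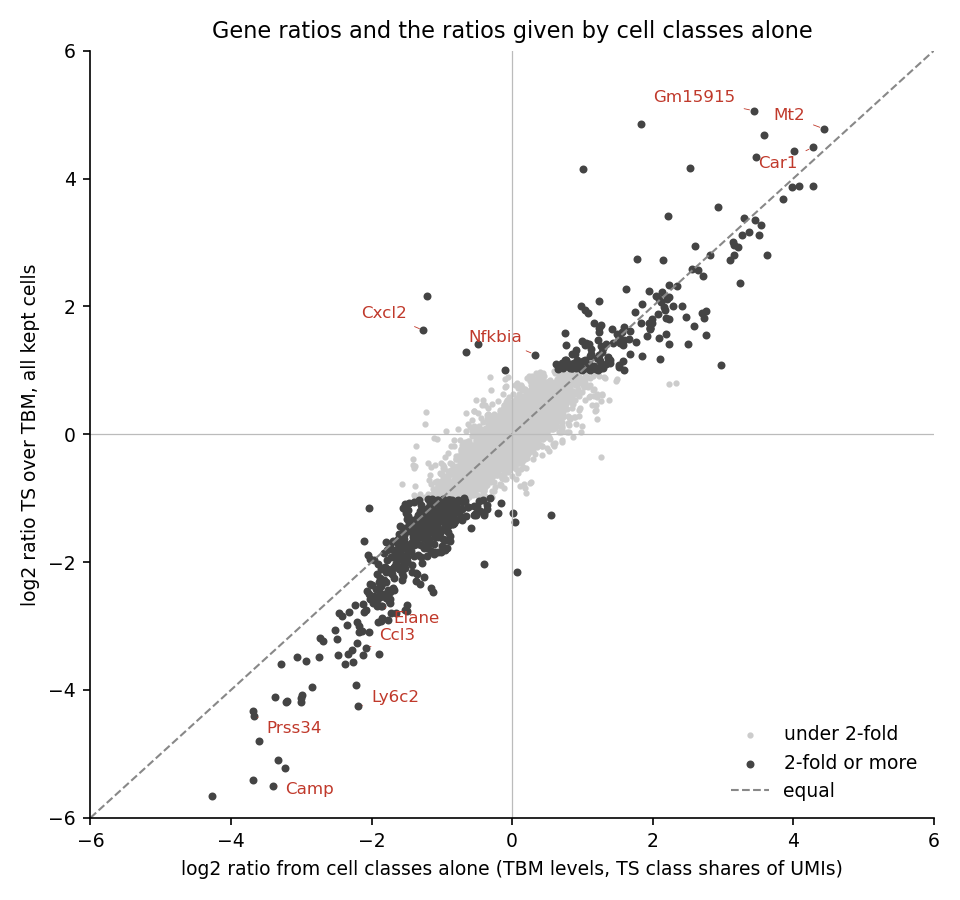
Observed log2 ratio of TS over TBM (y axis) for 5883 genes against the log2 ratio from cell classes alone (x axis, TBM class levels weighted by the TS class shares of UMIs), with genes at least 2-fold apart drawn dark. Car1, an erythroid class marker, and Mt2 lie near the line of equality, and Cxcl2 lies at 1.63 observed and -1.26 from classes alone.

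The same pooled contrast in the tumor-free mice had 139 of the 5883 genes higher in CS than CBM (2.36%) and 279 lower (4.74%). Of the 171 genes higher in TS, 123 (71.9%) were also past 2-fold in CS over CBM, and of the 430 lower genes 262 (60.9%) were. No gene of either set passed 2-fold in the opposite direction. Gm15915 stood at 390 CPM in CS and 27.5 in CBM, and Car1 at 1931 and 144 CPM.

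Within classes far fewer genes differed, and the erythroid-like class, whose cells stood at other stages in the 2 organs, was the exception. At least 2-fold higher in TS were 30 of 6300 tested genes in HSPC-like cells (0.476%), 26 of 5555 in GMP-like cells (0.468%), 444 of 5354 in erythroid-like cells (8.29%), 91 of 6078 in megakaryocyte-like cells (1.5%) and 114 of 5683 in mast or basophil-like cells (2.01%). At least 2-fold lower were 31 (0.492%), 15 (0.27%), 386 (7.21%), 16 (0.263%) and 153 (2.69%), in that order of classes. Class markers were left out of these within-class counts but not of the counts over all cells. Over the same genes scaled by the median of ratios, the balance in erythroid-like cells turned to 262 higher and 463 lower, and HSPC-like cells had 34 and 23. As a mean over barcodes the erythroid-like counts were 1320 and 465, and 267 genes were higher in megakaryocyte-like cells. Without cluster 16, described below, HSPC-like cells had 59 higher and 45 lower genes of 6293. The largest expression cluster within a class differed between the organs in 4 of the 5 classes. It was cluster 16 in TS (32.4% of the class) and cluster 4 in TBM (56.8%) for HSPC-like cells, clusters 6 (21.1%) and 11 (18.4%) for GMP-like cells, clusters 2 (21.4%) and 20 (60.7%) for erythroid-like cells, and clusters 19 (57.6%) and 13 (63.2%) for mast or basophil-like cells. For megakaryocyte-like cells it was cluster 9 in both (39.8% and 59.9%).

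HSPC-like cells of TS held more RNA of NF-κB target genes than those of TBM. Cxcl2 stood at 323 CPM (310 to 335) in TS and 26.3 CPM (23.4 to 29.5) in TBM, from 2515 and 292 UMIs, a log2 ratio of 3.62 (3.44 to 3.80). Tnf, the inflammatory cytokine (chr17:35199381-35202007, minus strand), stood at 53.4 CPM and 9.54 CPM (2.48, 2.17 to 2.80). Nfkbia stood at 532 and 146 CPM (1.87, 1.78 to 1.95), and Nfkbiz, a nuclear IκB protein (chr16:55811375-55838899, minus strand), at 196 and 63.4 CPM (1.63). In free RNA, Cxcl2 stood at 85.1 CPM in TS and 26.1 in TBM, so its level in TS HSPC-like cells was above that of TS free RNA, while in TBM they were alike. Free RNA held 8.32 and 13.2 CPM of Tnf and 270 and 114 CPM of Nfkbia.

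These 4 genes were the NF-κB response genes at least 2-fold higher in TS, of 17 tested in HSPC-like cells. Of all 6300 genes tested there, 30 (0.476%) were. The study had already reported the same genes as higher in TS from these libraries, and the list was chosen with that known. The count is therefore not separate from that choice, and no other tested member of the list passed 2-fold. Tnf reached a mean of 20 CPM only through TS, its 9.54 CPM in TBM being below the 13.2 CPM of TBM free RNA. Of the 17, 14 were above 0 on the log2 scale with a list median of 0.81, against 3314 of 6300 and a median of 0.01 for all tested genes. Below 2-fold were Zc3h12a, an RNase that limits inflammation (0.99), Nfkb2 (0.95), the deubiquitinase Tnfaip3 (0.83) and the adhesion molecule Icam1, at 110 and 62.9 CPM (0.80). The chemokine genes Ccl3 and Ccl4 were on the other side, at -0.87 and -0.63. The receptor for IL-1, Il1r1, stood at 42.6 CPM in TS and 58.8 in TBM (-0.47, -0.66 to -0.27), and Tnfrsf1a, a receptor for TNF, at -0.43.

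Shares of cells with a UMI had the same direction. After each cell was thinned to 2000 UMIs, 28.6% (25.0 to 32.4) of TS HSPC-like cells and 3.18% (2.09 to 4.62) of TBM HSPC-like cells had a Cxcl2 UMI, and 45.1% and 8.62% had one before thinning. In low-hemoglobin erythroid-like cells, where Cxcl2 was low, the thinned shares were 5.74% and 3.57%. Median depths were 11318.5 and 12098 UMIs in HSPC-like cells against 34087 and 35300 in low-hemoglobin erythroid-like cells. Tnf had a UMI in 10.9% and 1.71% of thinned HSPC-like cells (37.3% and 9.71% before thinning) and in 0.245% of thinned low-hemoglobin erythroid-like cells of TS. Nfkbia had one in 59.2% and 23.7% of thinned HSPC-like cells.

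Some immediate-early genes, which also respond to tissue digestion, stood higher in TS HSPC-like cells as well. Of 21 tested genes of the dissociation and immediate-early list 5 were at least 2-fold higher in TS and 1 lower, with 17 above 0 and a median of 0.53, beside 30 higher (0.476%), 31 lower (0.492%) and 3314 above 0 of all 6300 tested genes. The transcription factor genes Egr1 (1433 and 368 CPM, 1.96) and Egr3 (62.7 and 23.1 CPM, 1.44), the phosphatase Dusp2 (529 and 148 CPM, 1.83), the antiproliferative Btg2 (904 and 295 CPM, 1.61) and Jun (1.18) were the higher members. Fos stood at 1246 CPM in TS and 1539 in TBM (-0.31), its relative Fosb at 270 and 479 CPM (-0.83), and Klf6 at 51.3 and 113 CPM (-1.14). Cd69, an early activation antigen, stood at 487 and 117 CPM (2.06), and Gadd45b, a stress-response gene, at 169 and 44.1 CPM (1.94). Members of both lists stood higher in TS in the same class, and the part of sample handling in either was not tested.

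**Figure D4:**
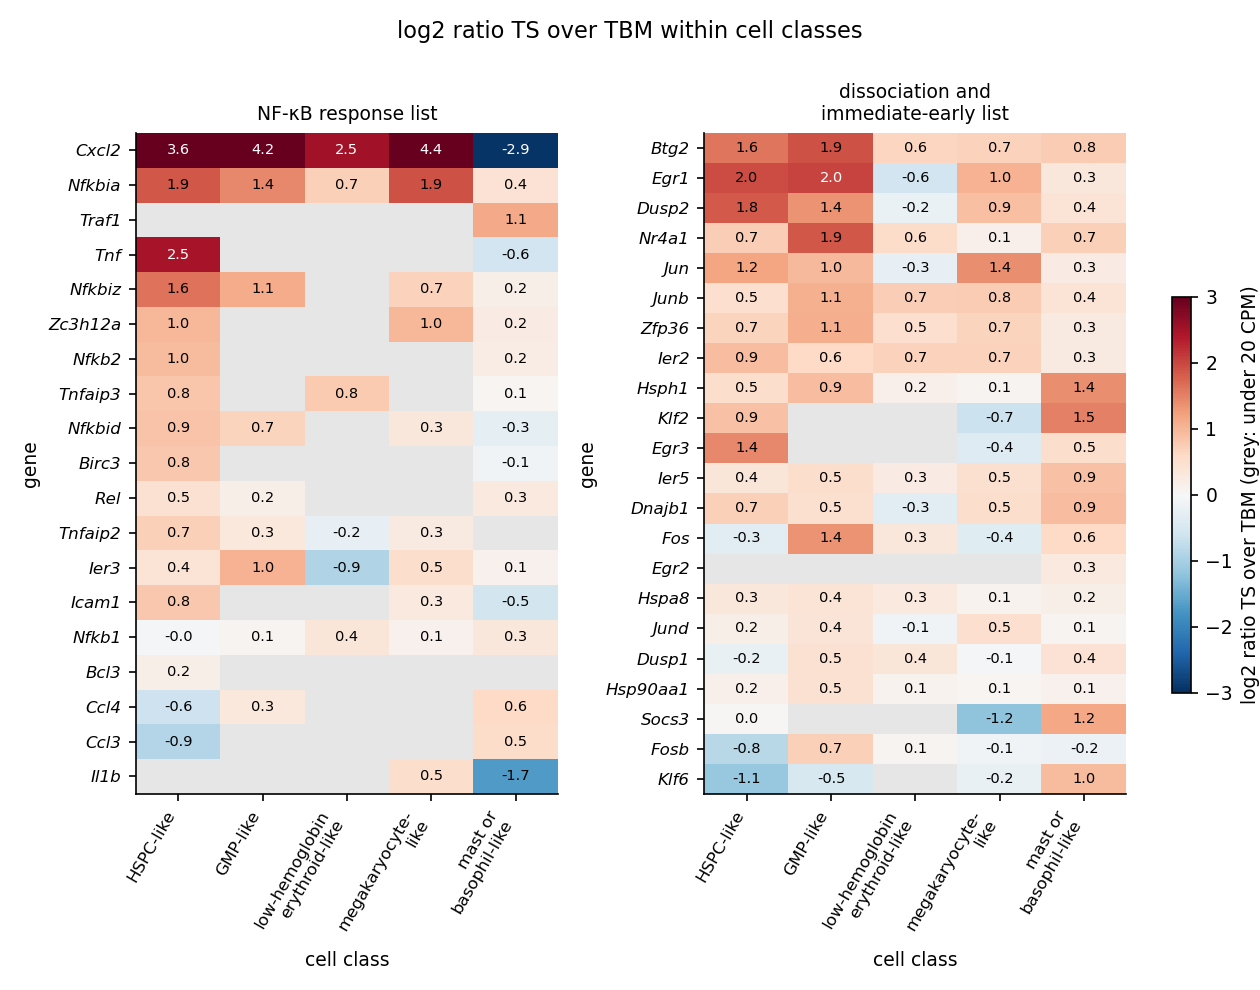
Log2 ratio of TS over TBM (color, saturating at 3 in either direction, grey where the mean was under 20 CPM) for the genes of the NF-κB response and the dissociation and immediate-early lists in 5 cell classes. Cxcl2 is 3.62 in HSPC-like and -2.95 in mast or basophil-like cells, and Egr1 is 1.96 in HSPC-like and -0.58 in low-hemoglobin erythroid-like cells.

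Part of the HSPC-like class of TS formed a group of its own. Cluster 16 held 211 cells, 208 from TS and 3 from TBM, led by Dusp2, Ly6a, Cxcl2, Btg2, Dusp5 and Egr1 although both lists had been left out of the clustering. In the TS HSPC-like cells of that cluster Cxcl2 stood at 542 CPM (510 to 576), and in the other TS HSPC-like cells at 248 CPM against 26.1 in TBM cells outside it (3.25, 3.06 to 3.43). Outside the cluster Tnf stood at 33.5 and 9.22 CPM (1.86), Nfkbia at 501 and 146 CPM (1.78) and Egr1 at 1264 and 367 CPM (1.78). Il1r1 stood at 68.1 CPM inside the cluster in TS and at 33.9 outside it, against 59.0 in TBM.

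In the tumor-free mice Cxcl2, Tnf, Nfkbia and Nfkbiz had the same order between organs in HSPC-like cells. Spleen levels of Cxcl2, Nfkbia and Nfkbiz were below those of TS. For Tnf the counting intervals of CS (37.0 to 49.7) and TS (48.4 to 58.7) overlapped, and 8.92% and 10.9% of thinned cells had a UMI. Cxcl2 stood at 189 CPM in CS and 11.4 in CBM, Tnf at 43.0 and 9.13 CPM, and Nfkbia at 331 and 114 CPM. Fos and Fosb were in the opposite order to TS and TBM, with Fos at 2008 CPM in CS and 1488 in CBM and Fosb at 873 and 297 CPM. The plot of Cxcl2, Tnf, Nfkbia and Egr1 by class shows all 4 libraries together.

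**Figure D5:**
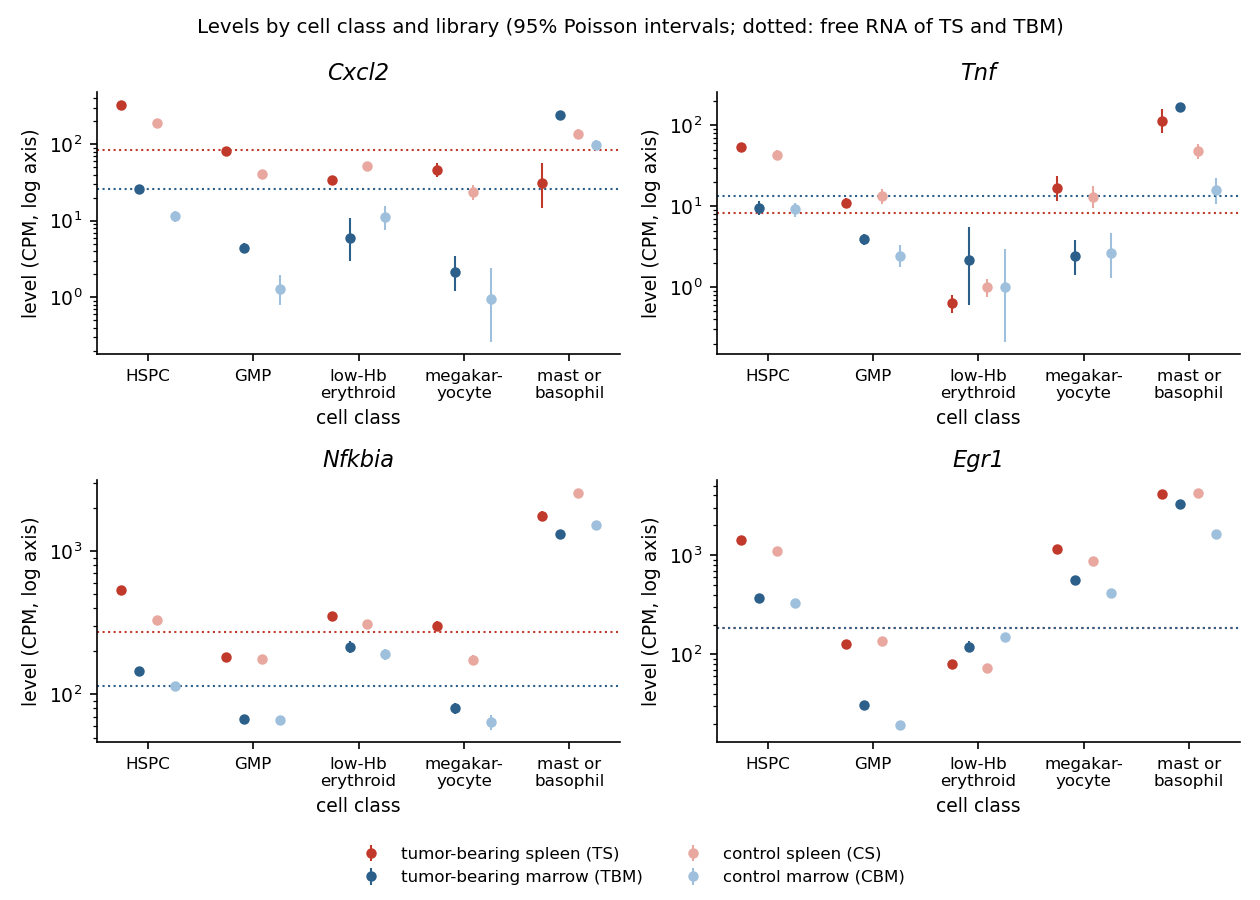
Level of Cxcl2, Tnf, Nfkbia and Egr1 (CPM, log axis) by cell class in TS, TBM, CS and CBM with exact Poisson 95% intervals, dotted lines marking free RNA of TS and TBM. Cxcl2 in HSPC-like cells lies at 323 CPM in TS, 189 in CS, 26.3 in TBM and 11.4 in CBM.

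Several other gene groups of the HSPC-like cells lay mostly to one side, but the class was made up differently in the 2 organs. Cluster 4, led by Hlf, Vldlr and Nkx2-3, held 468 of the 824 TBM HSPC-like cells and 54 of the 612 of TS. Clusters 16, 6 and 0 held 198, 130 and 93 of TS and 3, 94 and 46 of TBM. The part of these clusters in the HSPC-like differences, that of Vldlr below included, was not tested. All 21 tested genes of G2 and mitosis were above 0 with a median log2 ratio of 0.59 and 0 past 2-fold, where 3314 of all 6300 genes were above 0, such as Mki67 at 426 and 267 CPM, Top2a at 434 and 301 CPM and Plk1 at 0.75. Of 22 S phase genes, 19 were above 0 with a median of 0.26. The 10 tested growth factor and cytokine receptors were all below 0 with a median of -0.27, 1 of them past 2-fold. Among them Kit, the stem cell factor receptor, stood at 204 and 256 CPM (-0.32). All 8 tested cholesterol synthesis genes were below 0 as well (median -0.25), 1 of them past 2-fold. None of the 12 homing and adhesion genes passed 2-fold, and Isg15 was the interferon-stimulated gene of 10 that did (51.4 and 22.8 CPM, 1.18).

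Lowest in TS HSPC-like cells among genes above 100 CPM were Wfdc17 (56.2 and 151 CPM, -1.43), the mitochondrial leucyl-tRNA synthetase Lars2 (92.5 and 224 CPM, -1.27), the noncoding RNA genes Gm42418 (2186 and 5219 CPM, -1.26) and Gm10076 (108 and 217 CPM), and the lipoprotein receptor Vldlr (80.6 and 166 CPM, -1.04). Gm42418 overlaps other annotated genes on the opposite strand, so its reads are uncertain. RNA of other lineages was present in the class, whose own summed markers stood at 1560 CPM in TS and 2061 in TBM. Summed erythroid markers stood at 119 CPM in TS and 37.7 in TBM HSPC-like cells (2463 and 263 in free RNA), and GMP markers at 676 and 1232 CPM (2930 and 12580 in free RNA).

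Cxcl2, Nfkbia and Nfkbiz had the same direction in GMP-like cells, at lower levels. This class too was made up differently in the 2 organs. Clusters 3 and 6, both led by Cd34 and with Adgrl4 among their leading genes, held 103 and 120 of the 569 TS cells. Of the 1601 TBM cells they held 186 and 82. Cxcl2 stood at 80.5 CPM (76.4 to 84.7) in TS and 4.42 CPM (3.81 to 5.10) in TBM, from 1482 and 186 UMIs, a log2 ratio of 4.19 (3.97 to 4.42). Free RNA had 85.1 and 26.1 CPM, so neither level exceeded that of free RNA. The thinned share of cells with a Cxcl2 UMI was 15.0% and 1.08%, or 35.7% and 3.43% before thinning, at median depths of 32481 and 29569 UMIs. Nfkbia stood at 183 and 67.8 CPM (1.43) and Nfkbiz at 57.8 and 26.7 CPM (1.11). All 9 tested NF-κB genes were above 0 (median 0.68), beside 3938 of all 5555 tested genes (median 0.10). Of the 9, 4 passed 2-fold, beside 26 of all 5555 (0.468%), and Cxcl2 reached a mean of 20 CPM only through TS.

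Of 18 tested dissociation and immediate-early genes in GMP-like cells, 17 were above 0 (median 0.82), in a class where 3938 of all 5555 tested genes were above 0. At least 2-fold higher were 7 of the 18, beside 26 of all 5555 (0.468%). Among the 7 were Egr1 at 128 and 31.1 CPM (2.04), the nuclear receptor Nr4a1 at 121 and 33.3 CPM (1.87), Fos at 948 and 371 CPM (1.35) and Junb at 354 and 170 CPM (1.06). The 21 of 22 genes of G2 and mitosis above 0 had a list median of 0.29. On the lower side stood myeloid secretory genes. Chil3 stood at 24.3 CPM in TS and 98.7 in TBM (-2.02), the protease inhibitor Slpi at 34.6 and 97.0 CPM (-1.49), Wfdc21 at 87.7 and 200 CPM (-1.19) and the peptidoglycan-binding Pglyrp1 at 68.4 and 150 CPM (-1.13). Free RNA had 13.3 and 398 CPM of Chil3. Slpi was a leading gene of cluster 15 and Pglyrp1 of cluster 23. These clusters held 242 and 125 GMP-like cells of TBM and 1 and 0 of TS, at median depths of 2980 and 5990 UMIs. Summed erythroid markers were 246 CPM in TS and 26.2 in TBM GMP-like cells, and Mt2 stood at 37.6 and 4.94 CPM (2.93) beside 447 and 16.2 CPM in free RNA. The part of free RNA or of the clusters in these differences was not tested.

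Among low-hemoglobin erythroid-like cells fewer genes passed 2-fold between the organs than in the whole class, although hemoglobin was not matched within this range. There, 29 of 5537 genes were at least 2-fold higher in TS (0.524%) and 76 lower (1.37%), in place of the 8.29% and 7.21% of the whole class. Gm15915 stood at 341 CPM in TS and 120 in TBM (1.51), the calmodulin gene Calm2 at 574 and 251 CPM (1.19) and Crip1 at 313 and 155 CPM (1.01). Mt2, among the widest pooled differences, stood at 561 and 455 CPM (0.30). Nfkbia stood at 354 and 214 CPM (0.73, 0.58 to 0.87) and Cxcl2 at 34.2 and 5.98 CPM (2.52, 1.67 to 3.52), the latter on 11 UMIs in TBM and below free RNA on both sides. None of 17 dissociation and immediate-early genes passed 2-fold, Egr1 being at 80.5 and 120 CPM (-0.58).

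Heme genes of the low-hemoglobin cells lay on the lower side in TS, mostly within 2-fold. All 14 tested genes of heme synthesis and iron handling were below 0, with a median of -0.58 against -0.02 for all tested genes. The enzyme Cpox (-0.91) and the transferrin receptor Tfrc (233 and 391 CPM, -0.75) showed this, and Uros (-1.06) was past 2-fold. Ifitm1, an interferon-induced membrane protein, stood at 30.8 and 180 CPM (-2.55, -2.71 to -2.38), the protease Ctse at 66.6 and 215 CPM (-1.69), Tmsb4x at -1.16 and Picalm at -1.10. The TBM side of these values rested on 56 cells, with a median of 0.0193% hemoglobin against 0.00385% in TS. The globin gene Hbb-bs stood at 24.6 CPM in TS and 214 in TBM low-hemoglobin cells. In HSPC-like cells it stood at 33.5 and 153 CPM, and in free RNA at 1366 and 5911 CPM. Whether hemoglobin this low reflects the stage of a cell or free RNA was not tested.

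Taken as a whole class, erythroid-like cells differed in late erythroid genes, and the part of hemoglobin stage in the differences of the class was not tested. The late erythroid genes E2f2 (8.45 and 239 CPM, -4.82), Slc25a37, the mitochondrial iron importer (21.9 and 520 CPM, -4.57), and Hemgn (36.5 and 536 CPM, -3.88) were far lower in TS. Among hemoglobin-rich cells alone, 166 of 4514 genes were at least 2-fold higher in TS (3.68%) and 56 lower (1.24%), on 60 and 150 cells whose median hemoglobin was 14.5% and 28.6%. Tmcc2 stood at 48.2 and 256 CPM there (-2.41), and Mt1 at 205 and 70.1 CPM (1.55). None of the 14 heme and iron genes passed 2-fold in these cells, and Cxcl2 had 1 UMI in TS and 20 in TBM.

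In megakaryocyte-like cells Cxcl2 had the widest ratio of the genes named, at 46.5 CPM in TS and 2.13 in TBM (4.45), on 90 and 15 UMIs. Genes with a mean of at least 100 CPM that stood furthest above included genes of platelets. The tubulin Tubb2a stood at 336 CPM in TS and 21.1 in TBM (3.99), the matrix protein Thbs1 at 313 and 29.1 CPM (3.43), the platelet receptor Clec1b at 437 and 90.1 CPM (2.28) and Tsc22d1 at 561 and 116 CPM (2.27). With cells left out that had at least 0.1% of UMIs in the platelet chemokine Ppbp, 97 and 279 cells remained, and 24 of 6032 genes were higher (0.398%) and 16 lower (0.265%). Tsc22d1 was then at 0.70. Cxcl2 stood at 49.0 and 2.13 CPM in these cells (4.52), below free RNA in both, and Nfkbia at 310 and 80.2 CPM (1.95). Jun (1226 and 442 CPM, 1.47), Cd69 (262 and 114 CPM) and Egr1 (1213 and 560 CPM, 1.11) were higher as well, and the cytokine feedback gene Socs3 was lower (27.0 and 64.7 CPM, -1.26). All 11 tested NF-κB genes were above 0, beside 2916 of all 6032 tested genes. Of the 11, 3 passed 2-fold, beside 24 of all 6032 (0.398%), and Cxcl2 reached a mean of 20 CPM only through TS.

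Mast or basophil-like cells ran the other way in Cxcl2. The 66 TS cells held 10 Cxcl2 UMIs and the 427 TBM cells 792, or 30.9 CPM (14.8 to 56.8) and 239 CPM (222 to 256), a log2 ratio of -2.95 (-4.02 to -2.06). TS cells were below TS free RNA and TBM cells above TBM free RNA. Thinned shares of cells with a Cxcl2 UMI were 4.69% and 12.7%, or 4.55% and 16.9% unthinned, at median depths of 3414.5 and 6731 UMIs. Il1b stood at 12.4 and 40.4 CPM (-1.71, on 4 and 134 UMIs) and Tnf at 114 and 170 CPM (-0.57). Nfkbia (1764 and 1308 CPM, 0.43), Ccl3 (4809 and 3287 CPM, 0.55) and Ccl4 (4031 and 2685 CPM, 0.59) were instead slightly higher in TS. In CS and CBM Cxcl2 stood at 138 and 97.5 CPM.

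Prss34, Mcpt8, Ccl6 and Ccl3 led the class in both libraries. Of its TS cells 38 lay in cluster 19, led by Ccl6, Ccl3 and Ccl4, and 23 in cluster 13, led by the basophil proteases Prss34 and Mcpt8, against 145 and 270 of its TBM cells. Kit, which mast cells and progenitors carry, stood at 142 and 15.7 CPM (3.18, on 46 and 52 UMIs, with 119 and 77.0 CPM in free RNA). The cytotoxic protease Gzmb stood at 309 and 63.3 CPM (2.29), Itga4 at 204 and 54.2 CPM (1.91) and the transcription factor Klf2 at 334 and 117 CPM (1.52). Free RNA held 208 and 94.8 CPM of Itga4, so neither Itga4 level exceeded that of free RNA. Slpi was lower (179 and 456 CPM, -1.35). Of the S phase genes, 2 of 18 were at least 2-fold lower and 0 higher, with a median of -0.48, beside 153 lower (2.69%) and 114 higher (2.01%) of all 5683 tested genes, whose median was 0.0027.

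No gene was at least 2-fold higher in TS in every one of the 5 compared classes (0 of 3976, 0%), and 1 was lower in every class (0.0252%), the adult β-globin gene Hbb-bs. Hbb-bs (chr7:103826534-103828096, minus strand) stood at 33.5 and 153 CPM in HSPC-like cells (-2.20), at 14.2 and 151 CPM in GMP-like cells (-3.41) and at -1.22 to -6.71 in the others, beside 1366 and 5911 CPM in free RNA. With mast or basophil-like cells left out and erythroid-like cells limited to low hemoglobin, 1 gene of 4598 was at least 2-fold higher in each of the 4 classes, Cxcl2, at 2.52 to 4.45. That count leaves out the class where Cxcl2 was at -2.95. In GMP-like, low-hemoglobin erythroid-like and megakaryocyte-like cells, Cxcl2 reached a mean of 20 CPM only through TS. Its TS level was above that of TS free RNA in HSPC-like cells only. Lower in each of them were Hbb-bs and Gm10076, the latter at -1.19 in GMP-like and -1.13 in low-hemoglobin erythroid-like cells. Nfkbia, higher in TS in all 5 classes, ranged from 0.43 in mast or basophil-like to 1.90 in megakaryocyte-like cells. In free RNA Nfkbia stood at 270 and 114 CPM, above its GMP-like levels on both sides. The transcription factor Sox4 ranged from 0.61 to 1.37 over the 5 classes but stood at -0.01 in low-hemoglobin erythroid-like cells. Rgs10, a regulator of G protein signaling, ranged from 0.57 to 0.94, on 11 TS UMIs in mast or basophil-like cells. It stood at 226 and 177 CPM in low-hemoglobin erythroid-like cells and at 194 and 71.4 CPM in free RNA. The part of free RNA in these ratios was not tested.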

How the data were processed

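The authors processed the reads with Cell Ranger 4.0 on mm10, per the submitters' processing notes, and deposited for each library an unfiltered matrix of UMI counts over 32285 features. No column was left unused. Groups were taken from the labels, 1 library each, and the labels gave no replicate. All counts were summed as deposited, without integration.

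Cells needed at least 1000 genes and at most 10% mt- UMIs. Counts were scaled to 1000000 UMIs. A cell took one of 15 classes by its mean scaled marker expression (131 markers, each scaled to its 99th percentile), given a score of at least 0.15, a margin of at least 0.05 and at least 3 detected markers. Clusters came from Leiden clustering (2000 variable genes, 30 components, 20 neighbours, resolution 1.2), without the NF-κB and dissociation lists, which gave 32. Doublets were not removed, and an alternative left out the 5% of barcodes with the most UMIs. A fold was read where the mean of both sides was at least 20 CPM, and classes were compared with at least 50 cells on each side. Median depth per cell was 26808 UMIs in TS and 14386 in TBM.

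Named genes were the 10 highest and lowest ratios over all cells and the 5 highest and lowest per class, each with a mean of at least 100 CPM, the 10 highest and lowest by their least extreme ratio over every class (at least 20 CPM), members of 13 gene lists, and Tnf, Cxcl2, Nfkbia, Nfkbiz and Il1r1. Mitochondrial, ribosomal protein, globin and immunoglobulin genes, Xist and Tsix were left out of the ranking. Hbb-bs and the leading genes of clusters were named after their values were seen. The members, markers and lists were chosen with earlier results of these data known. The class limits, the hemoglobin and Ppbp limits, a margin of 0.15, the settings without a class and the setting without cluster 16 were set after seeing these data.

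The 11 alternative settings changed the gene limit (350 or 2000), the mitochondrial limit (5%), the deepest barcodes, the scaling (median of ratios, or totals without abundant gene families), the free RNA (10% of UMIs subtracted), the summing (mean over barcodes), the minimum level (none, with at least 10 UMIs), and the classes (from clusters, or after thinning to 2000 UMIs). The comparison was tested on simulated data. Tools were Python 3.11.15, numpy 2.4.6, scipy 1.17.1, pandas 2.3.3, scikit-learn 1.9.0, leidenalg 0.10.2, igraph 0.11.9 and matplotlib 3.10.9. Positions were from GENCODE M21 on GRCm38, which held 32158 of the features. Some results are not reported here.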

Additional observations from a re-analysis of the deposited data

Results flagged for a closer look

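In 4 genes the difference between TS and TBM passed 2-fold in opposite directions in 2 cell classes. These differences between classes were not tested, since each side was 1 library. Cxcl2 stood at a log2 ratio of 4.45 in megakaryocyte-like cells, on 90 UMIs in TS and 15 in TBM, and at -2.95 in mast or basophil-like cells, on 10 and 792 UMIs. Slpi, a protease inhibitor of secretions and granulocytes, stood at 1.42 in megakaryocyte-like cells (103 and 140 UMIs) and at -1.49 in GMP-like cells (637 and 4082 UMIs). Lyz2, a lysozyme of myeloid cells, stood at 1.07 in megakaryocyte-like cells (333 and 578 UMIs) and at -2.24 in mast or basophil-like cells (3 and 145 UMIs). With the Ppbp-rich cells left out of the megakaryocyte-like class, no tested gene of the granule protein list, Lyz2 among them, passed 2-fold. Socs3, a feedback inhibitor of cytokine signaling, stood at 1.15 in mast or basophil-like cells (56 and 258 UMIs) and at -1.21 in megakaryocyte-like cells (54 and 455 UMIs).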

How the results depend on the processing

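No paired analysis was possible because each side was 1 library and the labels carried no replicate number. The log2 ratio of the HSPC-like share (-0.69) turned to 0.20 with at least 350 genes. It was -0.88 with at least 2000 genes, -1.11 with classes from clusters, -1.06 after thinning, -0.93 with a margin of at least 0.15 and -1.25 without cluster 16. That of the erythroid-like share (3.57) was 2.37 after thinning. The 171 genes higher and 430 lower over all cells became 291 and 331 by the median of ratios and 997 and 3752 with no minimum level, where more genes were counted. NF-κB genes at least 2-fold higher in HSPC-like cells numbered 4 of 17 tested, and 7 with classes from clusters and 9 after thinning. Of all genes tested in the main setting, 30, 55 and 42 were higher in these 3 settings. The list was chosen with the reported genes known. Genes higher in every class numbered 0, but 8 with no minimum level, 1 with at least 2000 genes, where mast or basophil-like cells were too few to be compared, and 1 in the 4 classes without those cells. Genes lower in every class numbered 1, but 0 with at least 350 genes, with 10% of UMIs subtracted, as a mean over barcodes or after thinning, and 2 with no minimum level, with at least 2000 genes (again without mast or basophil-like cells) or in those 4 classes. Within classes, the 444 higher and 386 lower genes of erythroid-like cells ranged from 216 to 1320 and from 372 to 468 over these settings, the 91 higher and 16 lower genes of megakaryocyte-like cells from 34 to 267 and from 14 to 61, the 26 higher and 15 lower genes of GMP-like cells from 17 to 34 and from 13 to 25 (17 and 25 as a mean over barcodes), the 30 higher genes of HSPC-like cells from 30 to 55 (59 without cluster 16), and the 153 lower genes of mast or basophil-like cells from 130 to 284. Unless stated, the cause was not tested. Of 736 values of named genes past 2-fold, 697 were still past it under the alternatives, 39 were not and 0 reversed. Of all 909 values of named genes, 588 were counted as the same, 321 as moved and 0 as reversed. Cxcl2 in HSPC-like cells ranged from 3.25 to 4.08, Tnf from 1.86 to 3.02 and Nfkbia from 1.78 to 2.02, while Cxcl2 in mast or basophil-like cells ranged from -3.78 to -1.84. The 66 mast or basophil-like TS cells had a median of 3414.5 UMIs, and the low-hemoglobin TBM side rested on 56 cells.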

Other observations

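Of 3 tested MHC class II genes, 2 were at least 2-fold higher in TS than TBM over all cells and 1 was below 0, beside 171 of all 5883 genes (2.91%) that were higher. Cd74 stood at 44.8 CPM in TS and 10.0 in TBM, and H2-Ab1, a chain of MHC class II, at 52.1 and 26.0 CPM (log2 ratio 1.00), both being well under the 1112 and 690 CPM of CS. Dendritic-like cells were 0.424% of TS (22 cells) and 9.43% of CS (305 cells), beside 0.0461% of TBM (2 cells) and 0.114% of CBM. The cluster led by MHC class II genes held more cells than the class, 45 in TS and 30 in TBM. T, NK or innate lymphoid-like cells were 1.41% of TS and 2.32% of CS, and 0.115% and 0.0286% of TBM and CBM. B lineage-like cells were instead a marrow class, with 3.87% of TBM and 7.35% of CBM against 0.540% of TS and 0.155% of CS. Macrophage-like cells numbered 6 in TS, 0 in TBM, 8 in CS and 29 in CBM. Within HSPC-like cells H2-Ab1 stood at 49.1 and 39.3 CPM (0.32), near the 44.6 CPM of TS free RNA and above the 18.2 CPM of TBM free RNA.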
